A study of Rattus norvegicus with 50 samples.

Results

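The 10 genes described here are *Dcn*, *Bgn*, *Lum*, *Fmod*, *Omd*, *Ogn*, *Islr*, *Slc6a20a*, *Igf2* and *Aldh1a2*, which are known as genes of the leptomeningeal fibroblasts that cover the brain, and which were followed across 25 arrays of rat hippocampus. They are 10 of the 15049 transcript clusters on the array that carry 1 gene symbol, with 1 cluster each. They were chosen by name, after *Omd*, *Dcn* and *Slc6a20a* had stood among the larger decreases in MONW versus NW hippocampus, so that this difference is given below as a description and carries no test. For *Omd* this direction, which is that of the deposited values under their labels, is opposite to the one the study gives, where the gene is named among those higher in MONW rats. The reason for this is not known here.

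The arrays were Affymetrix Rat Clariom S arrays of male Wistar rats, 3.5 months (14 weeks) old. The NW group (normal-weight, n = 8) received vehicle by mouth during lactation and then a diet with 10% of its calories from fat, and the MONW group (metabolically obese, normal-weight, n = 8) received the same vehicle and then a diet with 60% of calories from fat, given in the calorie amount of the NW rats. The MONW-Lep group (n = 9) was given oral recombinant murine leptin in that vehicle on days 1 to 20 of lactation and then the 60% fat diet. Both diets lasted 11 weeks. Peripheral blood mononuclear cells (PBMC) of the same 3 groups were hybridised to a further 25 arrays. The labels tell the rats apart by number but not by litter, so p-values measure the spread between these rats, which may share litters, and the number of arrays limits the precision.

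Levels are log2 values, so that 1 unit is a doubling, and they are compared between arrays for 1 gene but not between genes. As a floor, the 95th percentile of 1153 negative control probe sets lay between 7.96 and 8.58 on the hippocampal arrays. *Dcn* was above it on 21 of 25 arrays, *Slc6a20a* and *Igf2* on 19 each, *Bgn* on 15, *Islr* on 8 and *Fmod* on 6. *Ogn*, *Omd*, *Aldh1a2* and *Lum* were above it on 0 of 25 arrays, so their values are within the range of the negative control probe sets. Among 14 neuronal genes, 9 were above it on every hippocampal array, *Snap25* of the synaptic vesicle machinery among them, at 12.92 to 13.12. MONW replicate 7 stood apart, with a median correlation with the other arrays of 0.978 against at least 0.988 for the rest, and was high in genes of the striatum, with the dopamine receptor gene *Drd2* at 8.64 against at most 6.02 elsewhere. The same array was the lowest in *Neurod6* and *Prox1*, genes of hippocampal neurons, at 8.54 and 7.28 against at least 10.10 and 7.90 elsewhere. Without this array the differences of *Dcn*, *Slc6a20a* and *Omd* between MONW and NW were -0.27, -0.38 and -0.35 in place of the values given below.

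The leptomeninges are the pia and arachnoid, thin sheets of fibroblasts, vessels and macrophages over the brain surface and along the vessels that enter it. Their fibroblasts lay down collagen together with small leucine-rich proteoglycans, secreted proteins that bind collagen fibrils and growth factors. The hippocampus is folded around a pial fissure and lies beside the choroid plexus, whose epithelium makes cerebrospinal fluid and whose stroma is a fold of the same tissue. In bulk RNA, fewer cells of a type and less RNA per cell cannot be told apart.

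Among the small proteoglycans, decorin (*Dcn*) and biglycan (*Bgn*) belong to one class and fibromodulin (*Fmod*), lumican (*Lum*) and osteomodulin (*Omd*) to another, with osteoglycin (*Ogn*) in a class apart from both. In the GRCr8 assembly (RefSeq), *Dcn* lies on chromosome 7 at 34167973 to 34208004, with *Lum* 37.3 kb further on, at 34245323 to 34252510. *Ogn* lies on chromosome 17 at 15238500 to 15259167 and *Omd* 7.5 kb from it at 15266646 to 15274870. *Fmod* lies on chromosome 13 at 48045567 to 48056184, 102.0 kb from *Prelp*, a proteoglycan gene outside the 10. *Bgn* is on the X chromosome at 156348633 to 156360797. The other 4 genes are *Islr* (chromosome 8, 67467013 to 67469989), whose product is a leucine-rich membrane protein of stromal cells, *Slc6a20a* (chromosome 8, 132159768 to 132200016), a transporter of proline and related imino acids, *Igf2* (chromosome 1, 207243873 to 207261263), a growth factor made in the adult brain mainly by leptomeninges and choroid plexus, and *Aldh1a2* (chromosome 8, 80758641 to 80837891), an enzyme that makes retinoic acid.

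RefSeq promoters of 300 bases, from 250 bases before to 50 after a transcription start, matched 8 of the 10 genes (9 starts). Those of *Omd* and *Slc6a20a*, 2 of the genes that led to the choice, and of *Ogn* and *Fmod*, whose levels ran closely together, are shown from 5′ to 3′ on the strand of the gene. Capitals mark the letters of 4 motifs searched on both strands: the TATA motif TATAAA, the CCAAT box (spelled as named), the GC box GGGCGG and the forkhead motif GTAAACA.
Omd, chr17:15274821-15275120, minus strand: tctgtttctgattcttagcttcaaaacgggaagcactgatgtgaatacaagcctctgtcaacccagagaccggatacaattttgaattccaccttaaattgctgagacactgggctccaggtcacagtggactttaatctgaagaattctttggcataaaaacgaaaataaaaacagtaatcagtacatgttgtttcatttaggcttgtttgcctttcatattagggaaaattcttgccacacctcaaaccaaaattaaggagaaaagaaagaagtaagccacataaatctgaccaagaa
Ogn, chr17:15258946-15259245, minus strand: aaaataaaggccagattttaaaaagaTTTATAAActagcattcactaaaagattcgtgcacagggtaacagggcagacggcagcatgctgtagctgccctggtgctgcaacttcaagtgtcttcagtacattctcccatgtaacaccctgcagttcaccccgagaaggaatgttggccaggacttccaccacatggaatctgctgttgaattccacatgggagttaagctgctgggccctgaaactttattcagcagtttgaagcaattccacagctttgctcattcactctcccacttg
Fmod, chr13:48045317-48045616, plus strand: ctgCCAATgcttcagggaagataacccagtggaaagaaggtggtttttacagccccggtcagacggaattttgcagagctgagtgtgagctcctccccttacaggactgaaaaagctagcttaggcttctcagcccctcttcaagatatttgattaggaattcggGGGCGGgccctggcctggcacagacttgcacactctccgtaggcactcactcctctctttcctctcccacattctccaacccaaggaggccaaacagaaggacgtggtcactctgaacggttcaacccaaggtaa
Slc6a20a, chr8:132199851-132200150, minus strand: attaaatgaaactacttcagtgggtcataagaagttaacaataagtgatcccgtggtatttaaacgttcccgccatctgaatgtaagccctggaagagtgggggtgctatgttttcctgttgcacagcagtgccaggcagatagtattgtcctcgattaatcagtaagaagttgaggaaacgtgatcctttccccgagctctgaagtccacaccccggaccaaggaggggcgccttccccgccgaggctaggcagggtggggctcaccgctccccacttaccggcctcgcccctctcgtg
The *Ogn* window held the TATA motif on both strands as one overlapping stretch, near the end away from the start, and *Fmod* held 1 CCAAT box and 1 GC box. No motif of the 4 was in the *Omd* or *Slc6a20a* window. Of 33469 promoters of this length, 14.2% held the TATA motif, 37.5% the CCAAT box, 33.1% the GC box and 3.78% the forkhead motif, and among the 8 genes these were in 1, 3, 3 and 0. The windows thus had no motif of the 4 in common.

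The levels of the 10 genes varied widely among rats of the same group. Their SD within groups lay between the 98.1 and 99.9 percentiles of all genes, from 0.39 for *Bgn* to 1.04 for *Ogn*, against a median of 0.18 over all genes. *Ogn* had a lowest, median and highest value of 6.05, 7.12 and 7.94 in NW, 4.58, 7.24 and 7.91 in MONW and 5.01, 7.40 and 7.94 in MONW-Lep rats. The medians of the groups were thus close to each other while the lowest values were not. MONW replicates 5, 6 and 7 stood at 4.72, 4.58 and 5.38 and MONW-Lep replicate 7 at 5.01, and the widest gap in the whole series of values, 0.67, separated these 4 arrays from the next, NW replicate 6 at 6.05. The low values were therefore found in 3 of 8 MONW, 1 of 9 MONW-Lep and 0 of 8 NW rats.

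These 4 arrays were low in the other genes too. *Dcn* was at 8.17, 8.37 and 7.25 on MONW replicates 5, 6 and 7 and at 8.21 on MONW-Lep replicate 7, and at 8.79 or more on the other 21 arrays. *Slc6a20a* was at 7.63, 7.25, 7.27 and 7.37 on the same arrays and at 8.11 or more elsewhere. *Omd* was at 5.02, 5.18, 4.96 and 5.04, and at 5.35 or more elsewhere. No other array reached down to these values in any of the 3 genes. For *Igf2* the 4 arrays read 7.33, 7.17, 7.28 and 7.23 against at least 7.75 on the others, and for *Fmod* 6.23, 5.85, 6.19 and 6.0 against at least 6.72. All 10 genes were below their median over the 25 arrays on each of the 4. The exceptions to a clean separation were *Lum*, *Bgn* and *Aldh1a2*, whose values on the 4 arrays overlapped those of the others. The lowest *Lum* value, 4.48, was on MONW-Lep replicate 5.

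**Figure D1:**
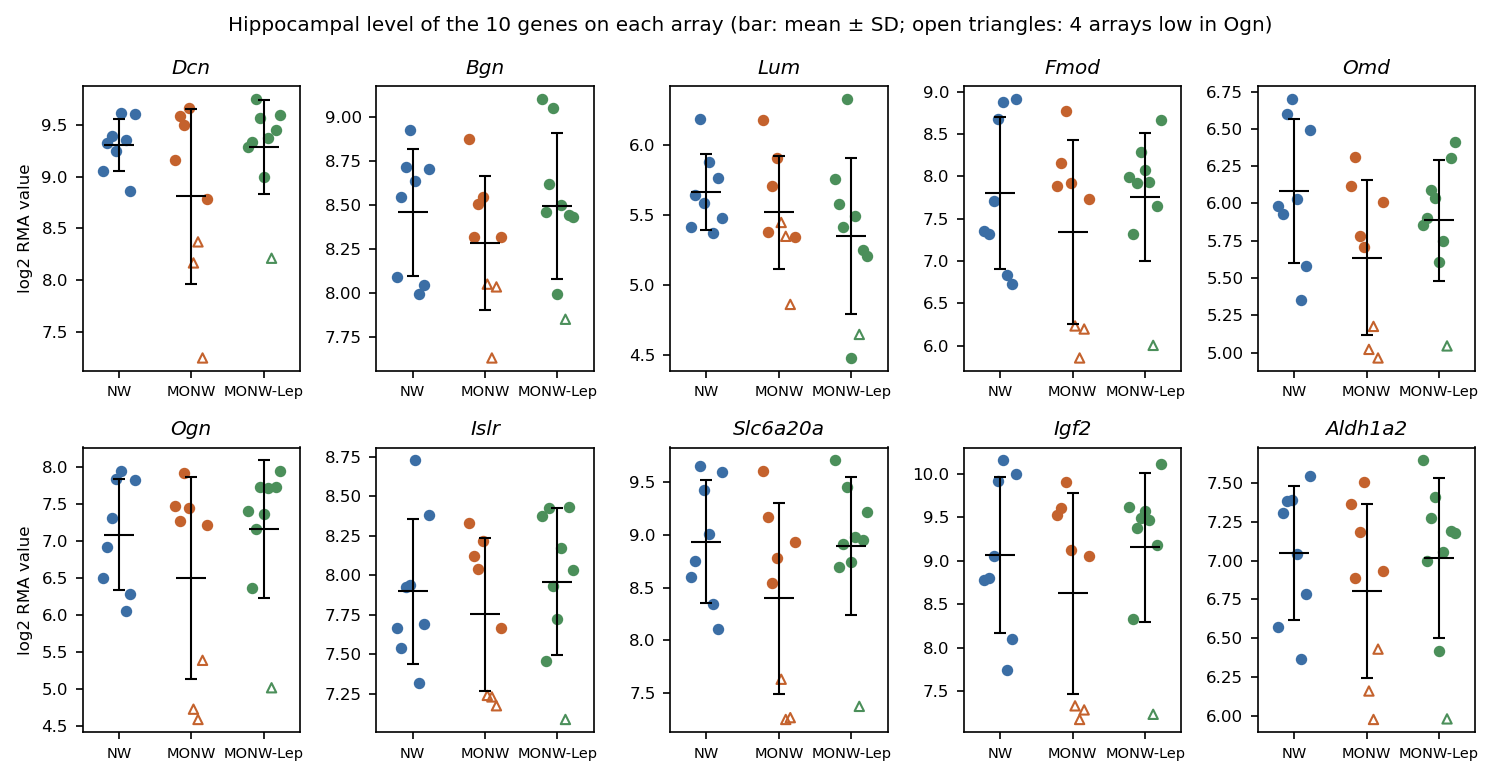
Level of each of the 10 genes (log2 value, y axis, a scale of its own per panel) on every hippocampal array, by group (8 NW, 8 MONW, 9 MONW-Lep), with bars for mean ± SD. Open triangles are MONW replicates 5, 6 and 7 and MONW-Lep replicate 7, which lie at the bottom of most panels, as for *Dcn* at 7.25 to 8.37.

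*In the deposited values all 10 genes had a lower mean in MONW than in NW hippocampus.* The comparison asks what the high-fat diet did under equal calories, and it is the one that led to the choice of genes. *Dcn* averaged 9.31 ± 0.26 (SD, n = 8) in NW and 8.81 ± 0.85 (n = 8) in MONW rats, a difference of -0.50 ± 0.26 (SE). For *Slc6a20a* the means were 8.94 ± 0.58 and 8.40 ± 0.90, and for *Omd* 6.08 ± 0.48 and 5.64 ± 0.52 (differences of -0.54 ± 0.33 and -0.45 ± 0.21). In every gene the values of the groups overlapped. The other differences were -0.58 for *Ogn*, -0.46 for *Fmod*, -0.45 for *Igf2*, -0.24 for *Aldh1a2*, -0.17 for *Bgn*, -0.15 for *Islr* and -0.14 for *Lum*, and the median of the 10 was -0.45, against -0.00029 over all genes. Of the 10 genes 1, *Omd*, was past the unadjusted p of 0.05 that the study used (limma), as were 3.08% of all genes in this contrast (463 of 15049). Since the contrast chose the genes, nothing is read from this count.

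The sign of this difference rested on the 4 low arrays. They were taken out after the values had been seen, and since 3 of the 4 are MONW arrays, this raises the MONW mean by construction. Without them, the median of the 10 differences was 0.10, *Dcn* differed by 0.03, *Slc6a20a* by 0.07, *Ogn* by 0.38 and *Omd* by -0.10, and no gene was past the threshold. The call of *Omd* was lost when NW replicate 1, 3, 4, 5 or 8, MONW replicate 4, 5, 6 or 7, or MONW-Lep replicate 1 was left out (*Dcn* took its place without MONW replicate 4). *Dcn* or *Slc6a20a* joined it without NW replicate 7, MONW replicate 1, 2 or 3, or MONW-Lep replicate 7. With the *Ogn* level as a covariate the median difference was -0.01, and with that of *Igf2* -0.07, where the covariate gene itself is at 0 by construction. In the same contrast 18 of 19 other leptomeningeal genes and 13 of 13 choroid plexus genes were below 0 (medians of -0.14 and -0.08), with 0 past the threshold in either list, where 7537 of all 15037 genes were below 0. All 5 perivascular macrophage genes were below 0 as well (median -0.13, with *F13a1* past the threshold). Myelin and striatal genes lay the other way. Above 0 were 9 of 9 myelin genes (median 0.18, *Mog* and *Opalin* past the threshold) and 7 of 7 striatal genes (median 0.23, *Adora2a* past it). Lists of further cells were below 0 in part, with 0 genes past the threshold. These were 5 of 6 hippocampal neuron (median -0.15), 6 of 8 microglia, 5 of 8 astrocyte, 10 of 17 endothelial and mural and 4 of 8 general neuron genes. The part of all these cells in the difference was not tested. The choroid plexus mean ranged from 5.84 to 9.38 in NW, from 5.72 to 9.36 in MONW and from 5.94 to 8.95 in MONW-Lep rats, and its part in the difference was not tested.

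MONW-Lep rats, which had not entered the choice, differed from NW rats by less than the SD within groups in each of the 10 genes. The NW arrays did enter the choice, so these values are a description too and carry no p-value. *Dcn* averaged 9.29 ± 0.46 (n = 9), a difference from NW of -0.02 (95% interval -0.53 to 0.49). *Slc6a20a* differed by -0.04 (-0.69 to 0.61) and *Omd* by -0.20 (-0.62 to 0.23). The largest difference was in *Lum*, -0.31 (-0.71 to 0.08), where the SD within groups was 0.43 and that of the NW rats alone 0.27. The intervals are wide enough to hold the decreases described for MONW rats, so the groups are not shown to be alike. The median of the 10 differences was -0.03, and 0 of 10 genes were past an unadjusted p of 0.05 with limma, as against 2.34% of all genes. Without MONW-Lep replicate 4, *Lum* was.

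The comparison of MONW-Lep with MONW shares its MONW arrays with the contrast that chose the genes and is a description as well. 9 of 10 genes were higher in MONW-Lep rats, by 0.66 for *Ogn*, 0.53 for *Igf2*, 0.50 for *Slc6a20a*, 0.48 for *Dcn* and 0.25 for *Omd*, and *Lum* was the exception at -0.17. 0 of 10 were past the unadjusted threshold, which 3.10% of all genes passed. The median difference was 0.33 with all arrays and -0.02 without the 4 low ones. Leaving out MONW-Lep replicate 7 alone brought *Dcn*, *Slc6a20a* and *Ogn* past the threshold, and leaving out MONW replicate 1, 2, 3 or 4 brought 1 of *Dcn* and *Slc6a20a* past it. MONW-Lep replicate 7 had the lowest mean deviation of the 10 genes, -1.16, so leaving it out raises the MONW-Lep mean by construction. The share of all genes past the threshold in these fits was not counted, and nothing is read from the calls.

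**Figure D2:**
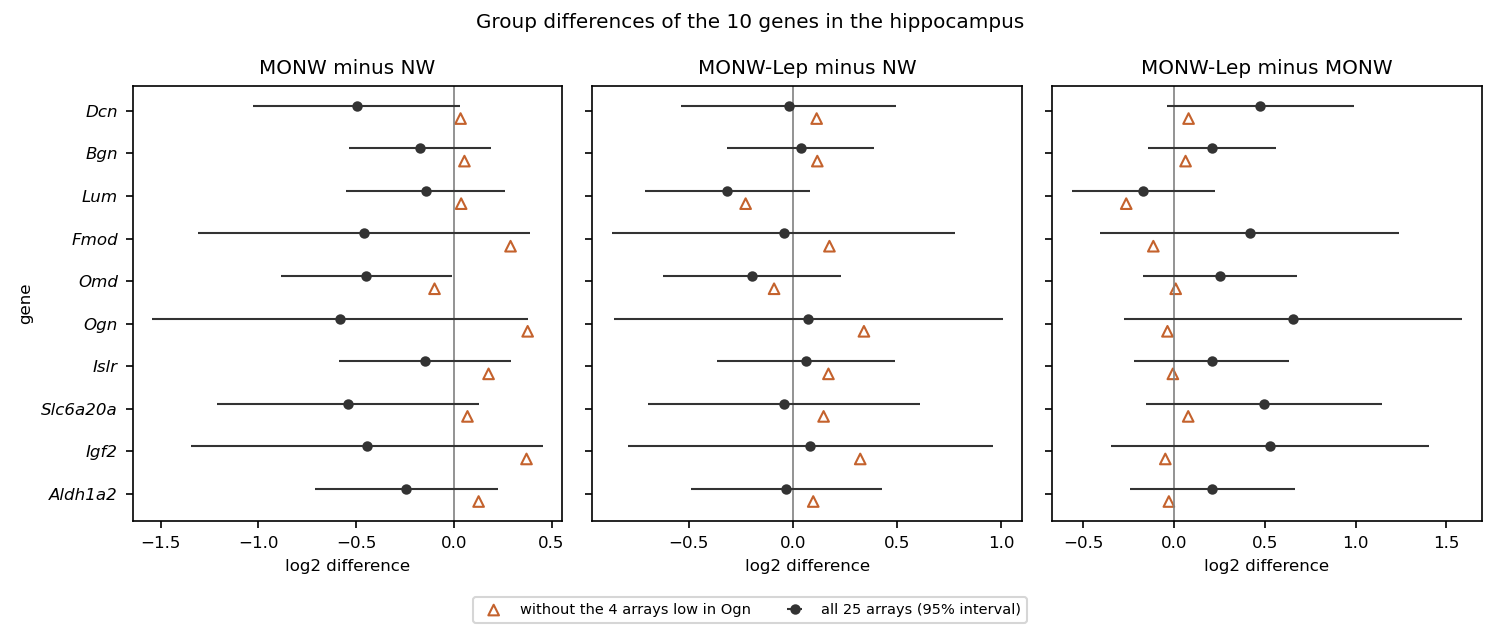
Log2 difference (x axis) of each gene (y axis) in the 3 hippocampal contrasts, as points with 95% intervals over 25 arrays and as open triangles without the 4 arrays low in *Ogn*. In MONW minus NW the points all lie below 0, with a median of -0.45, and the triangles have a median of 0.10.

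*The 10 genes ran together from rat to rat within the groups.* Group means were removed, so that no difference between the means of the groups enters. The spread among MONW rats remains, and with it the low arrays, whose values were part of the contrast that chose the genes. All 45 pairs then had a positive Pearson's r across the 25 arrays, from 0.38 for *Lum* and *Fmod* to 0.98 for *Fmod* and *Igf2*, with a median of 0.77 (Spearman's rho from 0.32 to 0.98, median 0.72). One principal component held 77.5% of the variance of the 10 genes. Neighbours on a chromosome were not the closest pairs: *Ogn* and *Omd* had r = 0.81 and *Dcn* and *Lum* r = 0.57. Within the 9 MONW-Lep arrays alone the median of the 45 was 0.77 and the lowest 0.32. All pairs share the same arrays, and these values are descriptions.

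*Dcn*, as the index gene, was set against each of the other 9 (9 relations). The MONW and NW arrays also made the contrast that chose the genes, so the p-values over 25 arrays are not independent of that choice. MONW-Lep arrays, taken alone further below, did not enter it. *Ogn* had r = 0.78 (rho = 0.79; permutation p = 0.00026 and 5e-05 within groups, n = 25), *Slc6a20a* r = 0.75 (rho = 0.65; permutation p = 0.00025 and 0.00217) and *Omd* r = 0.71 (rho = 0.66; permutation p = 0.00017 and 0.00079). *Lum* had the lowest r of the 9, 0.57 (rho = 0.50; permutation p = 0.00456 and 0.0143). The remaining 5 lay between *Bgn* at 0.59 and *Fmod* at 0.77. Without the 2 arrays farthest from the median of *Dcn*, MONW replicate 7 and MONW-Lep replicate 7, r was between 0.36 for *Lum* and 0.76 for *Ogn*.

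The coefficients were lower among the 21 arrays left after the 4 low ones were taken out. There r was 0.53 for *Islr* (permutation p = 0.0131), 0.50 for *Fmod* (p = 0.0192 by permutation), 0.46 for *Aldh1a2* (permutation p = 0.0372) and 0.43 for *Ogn* (permutation p = 0.0451), and the other 5 had r between 0.27 and 0.40 with permutation p-values of 0.0677 or more. Within the 9 MONW-Lep arrays, *Omd* had r = 0.91 with *Dcn* (exact permutation p = 0.00179) and *Aldh1a2* r = 0.85 (exact permutation p = 0.00731), while *Lum*, with r = 0.63, had an exact permutation p of 0.0833. Without MONW-Lep replicate 7 these were 0.74 (exact permutation p = 0.0354, n = 8), 0.60 (exact p = 0.114) and 0.50 (exact p = 0.186), and of the 9 genes only *Omd* was still past 0.05. The fall was larger in other genes. *Fmod* went from 0.82 to 0.24, *Ogn* and *Slc6a20a* from 0.81 to 0.20 and *Igf2* from 0.77 to 0.14 (exact permutation p of 0.583 or more without that array). *Islr* went from 0.77 to 0.45 and *Bgn* from 0.68 to 0.42. The coefficients with *Dcn* were thus lower without the low arrays, although all 9 were above 0. The 4 arrays were cut on *Ogn* and are also the lowest in *Dcn*. Their removal narrows the range of both genes, which by itself tends to lower r, and the size of that part was not tested.

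**Figure D3:**
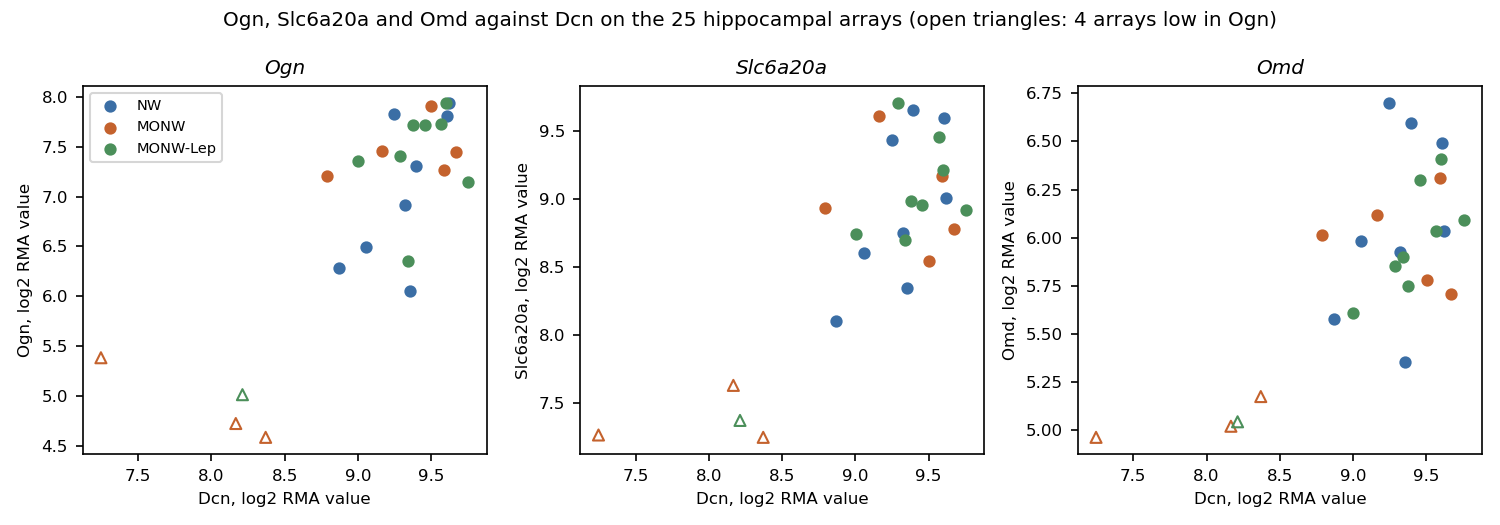
*Ogn*, *Slc6a20a* and *Omd* (y axes, log2 value) against *Dcn* (x axis, log2 value) on the 25 hippocampal arrays, coloured by group; open triangles are the 4 arrays low in *Ogn*. The triangles, at a *Dcn* of 7.25 to 8.37, lie apart from the other 21 points.

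A fit over all 15048 other genes gave the slope of each on *Dcn* within groups (limma, Benjamini-Hochberg over all of them). 7 of the other 9 genes rose with *Dcn* at an adjusted p under 0.05, where 0.970% of all genes did (146 of 15048, with 34 that fell). The count rests in part on the MONW and NW arrays that chose the genes and is not independent of that choice. Per log2 unit of *Dcn*, *Ogn* rose by 1.42 ± 0.23 (SE; adjusted p = 0.00253), *Igf2* by 1.31 ± 0.21, *Fmod* by 1.24 ± 0.20, *Slc6a20a* by 0.96 ± 0.16, *Aldh1a2* by 0.62 ± 0.13, *Islr* by 0.62 ± 0.11 and *Omd* by 0.58 ± 0.12 (adjusted p = 0.00976). *Lum* (0.43 ± 0.12) and *Bgn* (0.40 ± 0.11) had adjusted p-values of 0.0832 and 0.0716 in that limma fit. Leaving out any 1 array gave 7 or 8 genes, and leaving out the 4 low arrays gave 0, with all 9 slopes above 0 and 4 at an unadjusted p under 0.05. The share of all genes at that unadjusted p was not counted without the 4 arrays. Those 4 arrays are also the lowest in *Dcn*, so their removal narrows its range, which by itself makes a slope harder to detect.

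Outside the 10, the genes with the strongest positive slopes were *Serpinh1*, the collagen chaperone of the endoplasmic reticulum (0.55 ± 0.07, adjusted p = 0.00062), *Rsph9* and *Vwa3a* (0.60 and 0.50), of which *Rsph9* encodes a part of the ciliary radial spoke, *Sft2d2*, the bone morphogenetic proteins *Bmp6* and *Bmp7* (0.57 and 0.65), *Anxa2*, *Prelp*, the organic anion transporter *Slc22a8* (0.58) and *Ifitm1*. Those with the strongest negative slopes were *Kcnh4*, *Abcd2*, *Lhx8*, *Scn4b* and *Dbh*, from -0.26 for the potassium channel gene *Kcnh4* to -0.62 for the sodium channel subunit gene *Scn4b*. All 15 had an adjusted p of 0.0117 or less in limma.

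Of 19 other leptomeningeal genes, 10 rose with *Dcn* and 0 fell, with a median slope of 0.40 against -0.00057 over all genes. They included *Slc22a8* and *Slc22a6*, transporters of the blood-fluid barrier, *Slc6a13*, a transporter of GABA and taurine (0.69 ± 0.12), *Ptgds*, the prostaglandin D synthase of arachnoid cells (0.92 ± 0.18), the gap junction gene *Gjb2* and *Foxc2*, a forkhead factor of mesenchyme. Of 13 choroid plexus genes 5 rose and 0 fell, and all 13 slopes were above 0 with a median of 1.37. *Ttr*, the thyroid hormone carrier made by plexus epithelium, had a slope of 2.47 ± 0.57 (limma adjusted p = 0.0277) and *Kl*, the klotho gene, one of 2.29 ± 0.48.

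Other genes of the same families were counted in the same fit. Of 7 other small proteoglycan genes 1 rose, *Prelp* (0.60 ± 0.10), while *Aspn*, next to *Omd* on chromosome 17, had a slope of 0.19 (adjusted p = 0.334) and *Kera*, next to *Lum* on chromosome 7, one of -0.16 (adjusted p = 0.290). *Prelp* was at 8.72 to 10.68, but *Aspn* (3.47 to 4.87) and *Kera* (5.64 to 6.40) were below the floor on every array. Their slopes thus do not show whether these genes follow *Dcn*. The floor limits some of the 10 genes as well. *Ogn*, *Omd* and *Aldh1a2*, counted above as rising with *Dcn*, and *Lum* were above it on 0 of 25 arrays. Of 14 collagen and fibrillar matrix genes 2 rose, *Thbs2* (0.89 ± 0.15) and *Mfap4* (0.56 ± 0.13). Of 12 genes of the insulin-like growth factor system 2 rose, the binding protein gene *Igfbp2* (0.85 ± 0.16) and *Igf2r*, the receptor that clears *Igf2* protein (0.20 ± 0.05), and 0 of 13 retinoic acid pathway genes did. *Crabp2*, a carrier of retinoic acid, came closest, at 0.32 ± 0.09 (adjusted p = 0.0599).

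Markers of other cells were counted as well, and their part in the relation was not tested. Of 17 endothelial and mural genes 1 rose, the endothelial cadherin gene *Cdh5* (0.31 ± 0.07). By limma's adjusted p 0 of 5 perivascular macrophage, 8 microglia, 8 astrocyte, 9 myelin, 8 general neuron and 6 hippocampal neuron genes passed in either direction. At an unadjusted p under 0.05 were 2, 0, 1, 3, 0 and 2 of them, where 1228 genes of the whole table rose and 1064 fell. The 6 hippocampal neuron genes had a median slope of 0.21, with 5 of them above 0. Of 7 striatal genes 2 fell, *Pde10a* (-0.33 ± 0.08) and *Adora2a* (-0.39 ± 0.10), and all 7 slopes were below 0. MONW replicate 7, the array high in striatal genes, had the lowest *Dcn* value, 7.25, and with the mean of the striatal genes as a covariate 7 of the 9 genes still rose with *Dcn*. With *Ttr* as a covariate 0 of 9 passed the adjusted threshold. In that fit 9 of 9 were at an unadjusted p under 0.05, but the share of all genes at that p was not counted. Nothing is therefore read from this count.

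**Figure D4:**
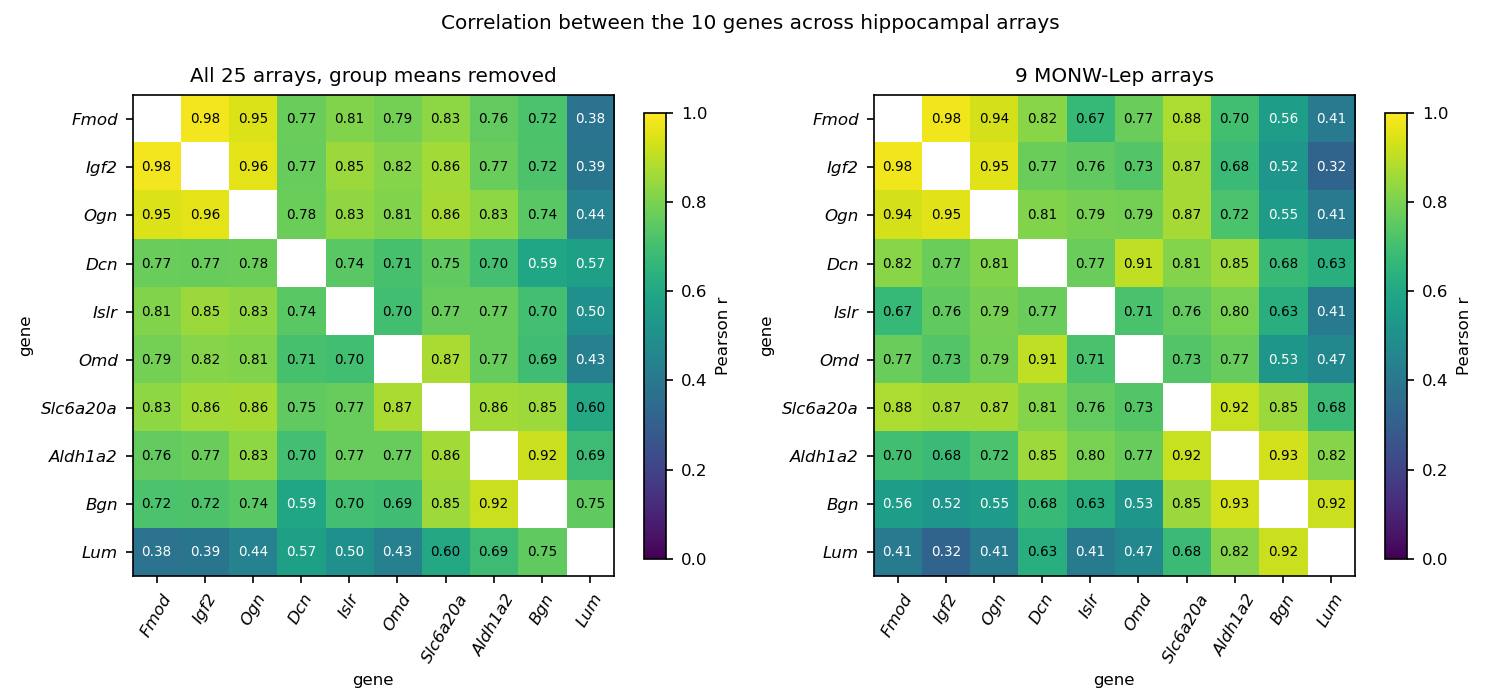
Pearson's r (colour and printed value, 0 to 1) between each pair of the 10 genes (both axes) after removal of group means, over all 25 hippocampal arrays (left) and over the 9 MONW-Lep arrays (right). *Fmod*, *Igf2* and *Ogn* form a block (0.95 to 0.98 on the left). On the same side *Aldh1a2* and *Bgn* are close (0.92), and *Lum* has its highest values with *Bgn* (0.75) and *Aldh1a2* (0.69).

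*With both lists in the model, 10 of 10 genes rose with the leptomeningeal genes and 3 also with the choroid plexus genes.* *Ttr* separated the arrays into 16 at 12.15 to 13.36 and 9 at 7.74 to 9.71, with 3 of the 9 in each group. The 4 arrays low in *Ogn* were all among these 9, but so were NW replicate 3 and MONW-Lep replicate 1, with *Ttr* at 8.32 and 9.16, and these were not low in the other genes. *Slc6a20a* was at 9.65 on NW replicate 3 and at 9.71 on MONW-Lep replicate 1, *Bgn* at 8.71 and 9.10 and *Aldh1a2* at 7.38 and 7.64, and the values of MONW-Lep replicate 1 were the highest of all 25 for these 3 genes. The mean of the 19 other leptomeningeal genes was 7.50 and 7.49 on these 2 arrays, near the highest of the series, 7.55. The other 3 of the 9 lay towards the low arrays. NW replicates 6 and 7 came next after the 4 in the mean deviation of the 10 genes, with 9 genes below their median on each and leptomeningeal means of 6.83 and 6.85, and MONW-Lep replicate 2 had 7 genes below their median and a leptomeningeal mean of 7.04. Low plexus genes thus went with low leptomeningeal genes on most but not all arrays, and the 2 list means had r = 0.56 after removal of group means.

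Both list means were then entered together in a fit over 15017 genes, which was added after the values had been seen. The lists were chosen with earlier results of these data known, and the MONW and NW arrays had chosen the 10 genes. Genes named as leptomeningeal are also likely to follow others so named, so the counts below are descriptions. All 10 genes rose with the leptomeningeal mean, where 1.29% of all genes did, by 1.02 ± 0.23 per log2 unit for *Islr* up to 2.41 ± 0.22 for *Slc6a20a* (limma adjusted p between 0.0226 and 1.81e-07). With the plexus mean as the only list 6 of 10 genes rose with it. With both means 3 of 10 did, *Fmod* (0.38 ± 0.05), *Igf2* (0.38 ± 0.05) and *Ogn* (0.34 ± 0.06), where 1.27% of all genes did (adjusted p of 7.71e-06, 1.83e-05 and 0.000347). The plexus slope was 0.12 ± 0.06 for *Dcn*, -0.00 ± 0.05 for *Slc6a20a*, -0.05 ± 0.03 for *Bgn* and -0.14 ± 0.05 for *Lum* (limma adjusted p of 0.172 or more). The difference between the slopes of the 3 and those of the other genes was not tested. *Prelp*, a neighbour of *Fmod*, rose with both means (0.84 ± 0.18 and 0.15 ± 0.04).

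The slopes held to different degrees when arrays were taken out. Without the 4 low arrays, the same 3 genes passed on the plexus mean (0.37, 0.36 and 0.29 for *Fmod*, *Igf2* and *Ogn*) and 7 of 10 on the leptomeningeal mean, with *Dcn* (0.63), *Omd* (1.17) and *Islr* (0.96) no longer past the adjusted threshold. Among the 16 arrays high in *Ttr*, *Fmod* (0.67 ± 0.08) and *Igf2* (0.56 ± 0.09) passed on the plexus mean, and *Bgn* (2.04 ± 0.30) and *Aldh1a2* (2.21 ± 0.36) on the leptomeningeal mean. Among the 9 arrays low in *Ttr*, 0 of 10 passed the adjusted threshold on either mean with limma, with 9 of 10 on the leptomeningeal and 1 on the plexus mean at an unadjusted p under 0.05. The share of all genes at that unadjusted p was not counted among these arrays.

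**Figure D5:**
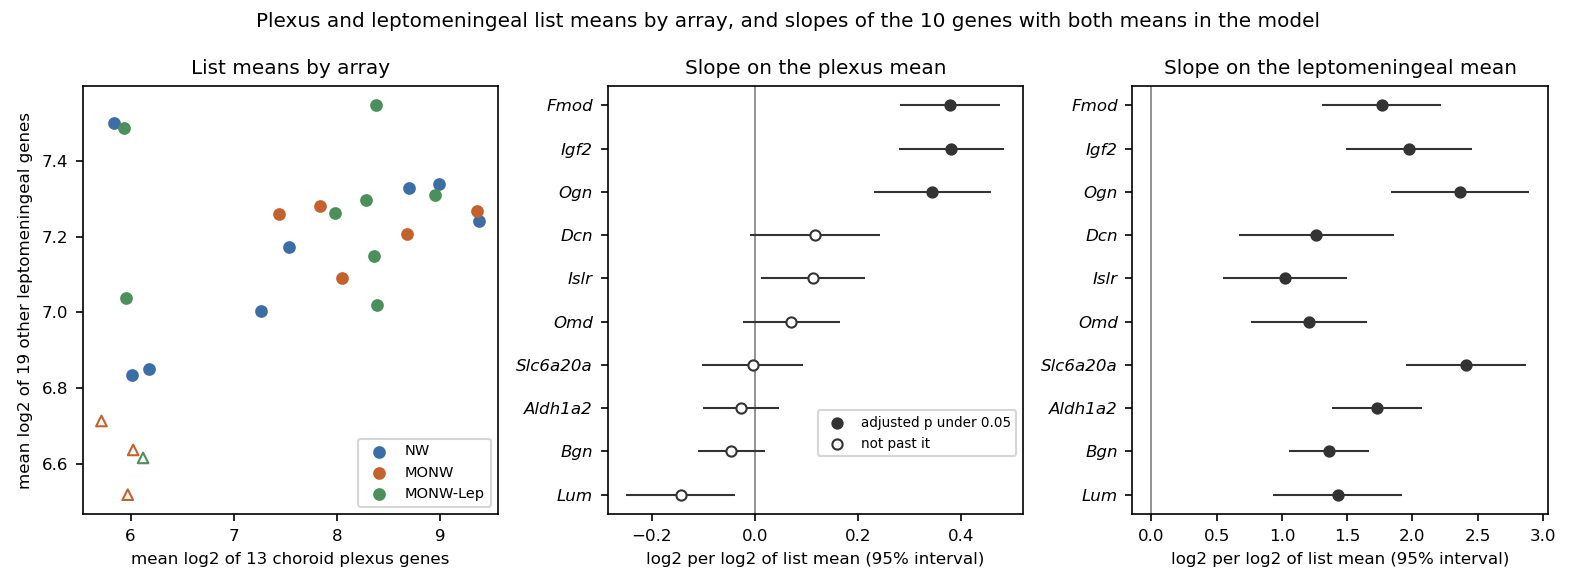
Left, mean log2 value of 19 other leptomeningeal genes (y) against that of 13 choroid plexus genes (x) on each of the 25 hippocampal arrays, with the 4 arrays low in *Ogn* as open triangles. Middle and right, slope of each gene on the plexus and on the leptomeningeal mean with both in the model, with 95% intervals; all 10 points on the right and *Fmod*, *Igf2* and *Ogn* in the middle are at an adjusted p under 0.05 (filled).

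The genes outside the 10 that ran most closely with each of them are named next. *Fmod*, *Ogn* and *Igf2* each had *Igfbp2* as the closest (r = 0.96, 0.92 and 0.95, 25 arrays), and *Kcnj13*, a potassium channel gene of plexus epithelium, was among the 3 closest of *Ogn* (0.91) and *Igf2* (0.93). *Bgn* was closest to *Gjb2* (0.93), *Aebp1* (0.91) and *Tbx18* (0.90), a transcription factor gene of mural cells and meningeal fibroblasts, and *Slc6a20a* to *Slc6a13* (0.94). *Aldh1a2* was closest to *Ptgds* (0.91), *Islr* to *Bmp7* (0.86), *Omd* to *Cp*, the ceruloplasmin gene (0.86), *Dcn* to *Serpinh1* (0.85) and *Lum* to *Slc35g3* (0.83). These are descriptions, and the genes were picked for their likeness.

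In PBMC, the lymphocytes and monocytes of blood, 9 of the 10 genes were below the 95th percentile of the negative controls on all 25 arrays (8.59 to 9.51), with *Dcn* at 4.14 to 5.64 and *Ogn* at 2.44 to 3.52. *Bgn* was above them on 15 of 25 arrays. This gene had a lowest, median and highest value of 6.17, 8.72 and 9.67 in NW, 7.05, 9.43 and 10.28 in MONW and 5.75, 9.20 and 9.91 in MONW-Lep rats, so that the groups overlapped over most of their range. The differences of *Bgn* were 0.65 ± 0.57 (SE) for MONW minus NW, 0.01 ± 0.55 for MONW-Lep minus NW and -0.64 ± 0.55 for MONW-Lep minus MONW (limma adjusted p of 0.999 or more). In each of the 3 contrasts 0 of 10 genes were past an unadjusted p of 0.05 with limma, against 3.0%, 4.75% and 2.45% of all genes. Without NW replicate 3 or 8 or MONW replicate 4 or 8 in the first, and without NW replicate 3 or MONW-Lep replicate 6 in the second, 1 gene (*Lum*, *Fmod* or *Slc6a20a*) was.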

How the data were processed

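The authors hybridised total RNA of hippocampus and PBMC to Affymetrix Rat Clariom S arrays and deposited 1 table of log2 values per transcript cluster for 50 arrays, made by RMA according to the submitters' processing notes, which also name R 4.0.4 and limma. RMA subtracts background, quantile-normalises the arrays to each other and summarises the probes of a cluster, which compresses differences of dim genes. The labels gave no scan batch. Here the 25 arrays of each tissue were fitted with limma 3.58.1 in R 4.3.3, with the 3 groups as the model, on 15049 clusters with 1 gene symbol (8139 clusters without a symbol were left out), and p-values were adjusted over all of them by Benjamini-Hochberg. Slopes on *Dcn* had the groups as further terms, and 95% intervals were taken from the moderated t distribution of limma. Exact and 100000-fold permutation tests were two-sided and were run in Python 3 with numpy, the latter permuting within groups; 1e-05 is the smallest p they can give. The fits were tested on simulated data. For 10 symbols with more than 1 cluster, the brighter cluster was used. Symbols are those of the platform annotation, and gene positions are from RefSeq (GRCr8).

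The 10 genes and the gene lists were chosen with earlier results of these data known. Named outside them are the 10 genes with the smallest p and a positive and the 5 with a negative slope on *Dcn*, up to 4 genes with the smallest p in each list, further genes past the threshold, the neighbouring proteoglycan genes, and genes picked for likeness to 1 of the 10 after their values had been seen. The alternatives were another quantile normalization, all clusters, a filter on dim clusters, an intensity trend, array weights, other index genes and covariates, each array left out, and the replicate number as a block. Amino acid sequences were not used here.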

Additional observations from a re-analysis of the deposited data

Results flagged for a closer look

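Each of the 10 genes was examined in each group of 8 or 9 arrays for an array far from the others, 60 groups in all, and 5 values on 3 arrays stood out, where chance gives about 3 values. MONW-Lep replicate 7 was below the other MONW-Lep hippocampal arrays in 3 genes: *Dcn* was at 8.21 against 9.0 on the next array, *Fmod* at 6.0 against 7.32 and *Slc6a20a* at 7.37 against 8.70. The 3 genes run together, so these are not 3 separate events. In PBMC, *Bgn* was at 7.05 on MONW replicate 7 against 8.93 on the next MONW array, and at 6.17 on NW replicate 6 against 8.44 on the next NW array.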

How the results depend on the processing

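In MONW versus NW hippocampus 1 of 10 genes was past the unadjusted threshold. With a second quantile normalization, array weights, only those 2 groups in the fit, only clusters above the negative controls (4 of the genes), *Ogn* as a covariate, or without the 4 arrays low in *Ogn*, it was 0. Leaving out 1 array gave 0 to 2 genes there, 0 to 1 in MONW-Lep versus NW and 0 to 3 in MONW-Lep versus MONW; in PBMC it gave 0 to 1 in MONW versus NW and in MONW-Lep versus NW, and 0 in the contrast of MONW-Lep with MONW. The count of genes that rose with *Dcn*, 7 of 9, was 2 of 3 with only clusters above the negative controls and 0 of 9 with MONW-Lep arrays alone, with *Ttr* as a covariate or without the 4 low arrays; with 1 array left out it was 7 to 8. MONW-Lep arrays alone left 0 genes of the whole table past the adjusted threshold. With the plexus mean alone 6 of 10 genes rose with it, with both means 3, and among the 9 arrays low in *Ttr* 0; for the leptomeningeal mean the count was 2 among the 16 arrays high in *Ttr* and 0 among the 9 low. The cause of these changes was not tested, beyond the smaller number of arrays or genes. No called value changed its sign.

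Those means, *Ogn* as a covariate and the removal of the 4 arrays were chosen after seeing the data. The replicate numbers did not pair the arrays: deviations of same-numbered arrays had correlations from -0.35 to 0.34, above 0.1 in 13 of 24 pairs. With the replicate block, 3 genes were past the unadjusted threshold in MONW versus NW, *Dcn*, *Omd* and *Slc6a20a* (limma adjusted p of 0.999 for each). In MONW-Lep versus MONW 1 was (*Dcn*). The 3 are the genes that led to the choice, and the share of all genes past that threshold with the block was not counted. Nothing is therefore read from these counts. At the adjusted threshold 0 of 9 rose with *Dcn* with the block, as did 0 genes of the whole table. 4 of the 10 genes were within the range of the negative controls on all arrays, where RMA values compress differences.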

Other observations

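In PBMC, *Bgn* ran with genes of platelets, which were picked after their values were seen. Across 25 arrays with group means removed, r was 0.99 with *Myl9* (rho = 0.95) and 0.98 with *F13a1* (rho = 0.92), a clotting factor subunit. With *Pf4*, the platelet chemokine, it was 0.96 (rho = 0.84). Since the genes were picked for their likeness to *Bgn*, these coefficients are descriptions and carry no p-value. Without the 2 arrays farthest from the median of *Bgn*, r was 0.98, 0.96 and 0.93. In hippocampus *Bgn* had *Gjb2*, *Aebp1* and *Tbx18* as its closest genes.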
